A study of Mus musculus with 6 samples.

Results

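Gene expression in the untreated liver was compared with that in the untreated brain, using 1 sample of each organ out of the 6 samples of the series. The measured set was 15415 genes with a value in both organs, of 16637 genes with a value in any sample. Both organs came from male FVB transgenic mice aged 6 to 8 weeks that had not been irradiated and that carried luciferase under a promoter with NF-κB-responsive elements. The other 4 samples are untreated intestine and the brain, liver and intestine of mice of the same line killed 3 h after 8.5 Gy of whole-body irradiation. RNA labelled with Cy5 was measured on a mouse oligonucleotide array with 1 dye, and each value is the intensity of a spot. With 1 sample a side there was no replicate spread, so no test was made, no p-value is given, and every fold below compares 1 liver sample with 1 brain sample, or 1 of another organ or treatment where so named. The sources used here do not state whether a value came from 1 array or summarizes several mice.

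The liver is built mainly of hepatocytes, which secrete most proteins of blood plasma, make bile, store and release glucose, and break down amino acids, fatty acids and foreign compounds. The brain is built of neurons, which signal through vesicle release at synapses and along axons, and of glia, among them astrocytes, myelin-forming oligodendrocytes and microglia. Many enzymes and carriers exist as families in which separate genes serve these organs. In a bulk RNA sample, fewer cells of a type and less RNA per cell cannot be told apart.

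The organs had been normalized separately, with median intensities of 56 in liver and 103 in brain. The 26385 probes with a value in both were therefore quantile-normalized to each other, which gives both organs the same set of intensities. Values under the median of 75.6 were raised to it before a gene's log2 difference was taken. A gene was called higher in an organ at a difference of 4-fold or more, so its probe had to reach at least 302 there if the gene has 1 probe, a gene below that in both organs is named too dim to be called, and where the dimmer organ was under the floor the fold is given as "at least". Intensities below are normalized ones unless said otherwise, the liver value is given before the brain value, and they compare organs for a gene, not genes with each other.

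Promoter sequences of 7 genes with large differences are shown first, since they hold motifs whose shares among promoters follow. They run from 110 bases before to 10 bases after the RefSeq start site, 5′ to 3′, on build GRCm38.p6. In the liver genes Fabp1 (chr6:71199769-71199888, plus strand), which encodes the fatty acid carrier of hepatocytes, and Cyp2e1 (chr7:140763709-140763828, plus strand), an ethanol-oxidizing cytochrome P450, capitals mark TATAAA at 30 and 31 bases before the start. In Alb (chr5:90460760-90460879, plus strand), which encodes albumin, and Slco1b2 (chr6:141629408-141629527, plus strand), which encodes an uptake carrier for bile acids, they mark the hepatocyte nuclear factor 1 (HNF1) motif GTTAATNAT. In Cyp2c70 (chr19:40187277-40187396, minus strand), which makes the muricholic acids of mouse bile, they mark the HNF4 motif CAAAGTCCA. In the brain genes Gpm6b (chrX:166238833-166238952, plus strand), which encodes a membrane protein of neurons and glia, and Kif5c (chr2:49619176-49619295, plus strand), which encodes a kinesin of axons, they mark the cyclic AMP response element TGACGTCA.
Fabp1: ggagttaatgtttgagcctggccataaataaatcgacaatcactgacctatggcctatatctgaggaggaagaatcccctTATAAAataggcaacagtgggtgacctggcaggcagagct
Cyp2e1: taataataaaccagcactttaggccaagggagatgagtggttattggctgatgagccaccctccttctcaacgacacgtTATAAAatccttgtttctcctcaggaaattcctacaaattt
Alb: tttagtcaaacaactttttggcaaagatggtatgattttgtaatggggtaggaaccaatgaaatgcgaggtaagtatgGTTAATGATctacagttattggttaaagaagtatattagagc
Slco1b2: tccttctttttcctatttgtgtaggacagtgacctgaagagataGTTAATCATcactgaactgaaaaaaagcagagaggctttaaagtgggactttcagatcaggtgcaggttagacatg
Cyp2c70: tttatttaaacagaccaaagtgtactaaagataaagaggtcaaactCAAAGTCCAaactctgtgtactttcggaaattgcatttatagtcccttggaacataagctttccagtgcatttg
Gpm6b: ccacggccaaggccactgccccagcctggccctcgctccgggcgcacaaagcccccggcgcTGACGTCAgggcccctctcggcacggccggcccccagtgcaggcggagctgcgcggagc
Kif5c: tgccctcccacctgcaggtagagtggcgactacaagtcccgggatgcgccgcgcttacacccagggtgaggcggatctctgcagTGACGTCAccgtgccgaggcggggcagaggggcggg

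A 300-base promoter window (250 bases before to 50 after the start) was at hand for 12370 of the 15415 measured genes and for 469 of the 570 genes higher in liver. On the strand of the gene, TATAAA starting 40 to 20 bases before the start site lay in 4.9% of the liver windows (23 genes) and in 2.35% of all measured windows. The HNF1 motif, searched on both strands, lay in 13 liver windows (2.77%) and 0.566% of all. With a further T at its 3′ end, as it was first searched, these were 1.92% and 0.315%. The HNF4 motif, searched likewise, lay in 7 liver windows (1.49%) and 0.412% of all. The C/EBP motif TTGCNNCAA lay in 2.56% of liver windows and 1.75% of all, and TGACGTCA in 0.853% and 2.65%. The ratio of observed to expected CpG had a median of 0.39 in liver windows and 0.68 in all, and was under 0.5 in 60.1% and 34.6% of them. The HNF1 matches include G6pc, the phosphatase that releases free glucose, Igfbp1, a carrier of insulin-like growth factors, and Pcbd1, which encodes the dimerization cofactor of HNF1. A window was at hand for 461 of the 585 genes higher in brain (78.8%), beside 82.3% of the genes higher in liver and 80.2% of all. Shares for the brain set are not reported here, and only the single matches in Gpm6b and Kif5c are shown. A match is a string of letters and not a shown binding site.

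Of the 15415 genes, 570 were at least 4-fold higher in liver (3.7%) and 585 at least 4-fold higher in brain (3.8%), while 12276 differed by less than 2-fold and 4363 were at the floor in both organs. The called differences had a median of 8.40-fold in liver and 7.24-fold in brain, with 81 and 48 genes at 32-fold or more, and 30 and 7 genes at 100-fold or more. The dimmer organ was at the floor for 259 of the liver genes and 285 of the brain genes, whose folds are therefore lower bounds. Without any scaling between the organs, the calls were 412 in liver and 967 in brain. The median gene then stood 0.26 lower in liver on the log2 scale after the floor, which narrows the gap between the deposited medians of 56 and 103. The balance between the organs thus depends on the scaling, and the differences here are relative to it. Across genes, log2 intensities of the organs had a Pearson correlation of 0.55, against 0.96 and 0.97 between the untreated and irradiated samples of liver and of brain, which is a description over genes that share an array design. By the same rule, 7.49% of genes differed between liver and brain, 5.69% between intestine and liver, and 6.62% between intestine and brain. The brightest 100 probes held 32.7% of the summed deposited intensity in liver and 17.8% in brain.

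**Figure D1:**
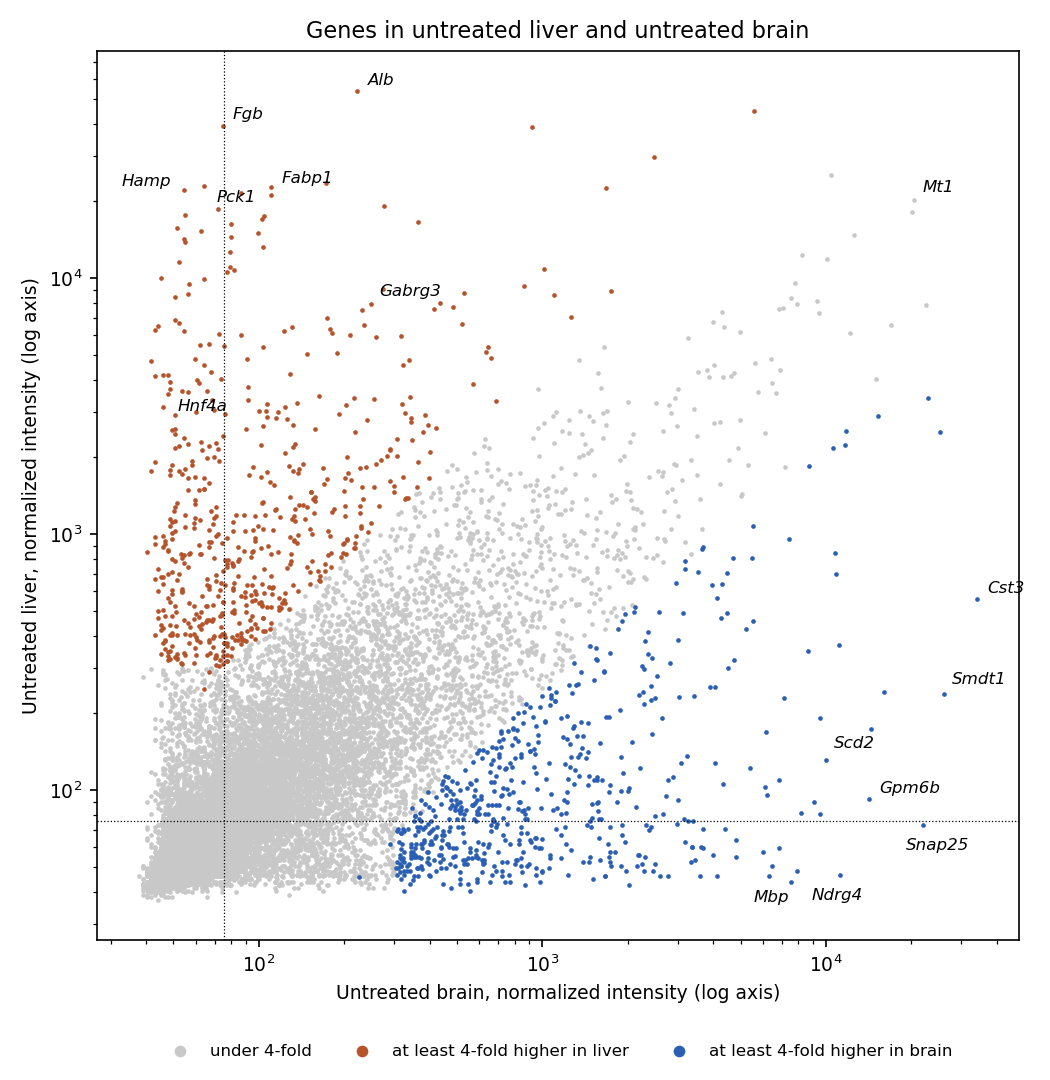
Normalized intensity of each of 15415 genes in untreated brain (horizontal, log axis) and untreated liver (vertical, log axis), with the floor of 75.6 as dotted lines and genes at least 4-fold apart in color. The 570 genes higher in liver reach further from the diagonal than the 585 higher in brain, with Fgb at 39385 and 74.5 and Snap25 at 73.3 and 22007, while the metallothionein Mt1 is bright in both.

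The labels of the samples were checked against defining markers of hepatocytes. Of 10 hepatocyte markers, 9 were measured and 8 were higher in liver. Apob, which encodes the structural protein of low-density lipoprotein, was the exception at 105 and 44. In the brain these 9 markers read between 44 and 222, with 4 of them under the floor, and their summed intensity was 882 there against 150738 in liver. No such set was fixed for brain. Snap25, Mbp and Slc1a3 were higher in brain, but they are named from among the called genes and so do not check its label. Some usual brain markers were dim on this array. Gad1, the enzyme that makes GABA, read 46.1 and 47.9, Aqp4, the water channel of astrocyte end-feet, 46.1 and 75.6, and Gfap, the astrocyte filament protein, 45.9 and 122. A dim probe does not show that a transcript is missing, since the probe of Gapdh, a glycolytic enzyme of cells in general that was picked here after its values were seen, read 49.6 and 48.6.

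Secreted plasma proteins were among the genes with the largest differences toward liver, beside the enzymes and carriers described further on. Fgb, the beta chain of fibrinogen, the clot-forming protein, read 39385 in liver and 74.5 in brain, at least 521-fold higher, the largest difference. After Pck1, a gluconeogenic enzyme at 22963 and 64.3 (at least 304-fold), came Hamp, which encodes the iron hormone hepcidin, at 22007 and 54.4 (at least 291-fold). Apoh, a phospholipid-binding plasma protein, read 18648 and 71.9 (at least 247-fold). Alb, which encodes albumin, read 53672 and 222, 242-fold higher. Of 29 measured plasma carriers and protease inhibitors, 22 were higher in liver and 0 in brain, with a median log2 difference of 4.03 beside a median of 0 over all genes. They include Ambp (alpha-1-microglobulin and bikunin, 204-fold), Serpinc1 (antithrombin, at least 188-fold), Serpina3k (140-fold), Pzp (at least 85.9-fold) and Rbp4, the vitamin A carrier, at 19171 and 276 (69.5-fold). Members of the Serpina1 and Serpina3 groups are near-identical in sequence, so their probes may read more than 1 gene.

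Of 21 coagulation factors 13 were higher in liver, with a median log2 difference of 2.42, and none was higher in brain. Fgg, the gamma chain of fibrinogen, read 15223 and 62.7 (at least 201-fold), F2, prothrombin, 3610 and 65.7 (at least 47.8-fold), and F13b 2458 and 50.5 (at least 32.5-fold). Of 18 complement components 11 were higher in liver. C3, the central component, read 15035 and 99.1 (152-fold), C8a of the membrane attack complex 4179 and 46.1 (at least 55.3-fold), and Hc 1837 and 95.5 (19.2-fold). Among 18 acute phase and iron proteins 10 were higher in liver, such as Hp, the hemoglobin scavenger haptoglobin, at 14414 and 79.5 (181-fold), and Orm1, orosomucoid, at 5385 and 103 (52.1-fold). Fth1, the heavy chain of the iron store ferritin, stood the other way at 460 and 5523, 12-fold higher in brain.

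The apolipoproteins were split. Of 21 measured genes of lipoprotein assembly 10 were higher in liver, among them Apoc1 at 21413 and 86.2 (248-fold), Apoa1, the main protein of high-density lipoprotein, at 21186 and 111 (191-fold), and Apoa2 at 10782 and 81.6 (132-fold). Apod, a lipid carrier of glia and nerve, was higher in brain at 54.4 and 567 (at least 7.5-fold). Apoa1 and Fabp1 were not particular to liver, since they read 22943 and 20148 in untreated intestine. Of 16 hormones and growth factors 6 were higher in liver, including the growth hormone receptor Ghr at 3755 and 91.7 (41-fold) and Igf1 at 2935 and 75.9 (38.7-fold).

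The metabolic lists were also on the liver side. Among 35 genes of amino acid breakdown 23 were higher in liver, with Tdo2, which opens the tryptophan ring, at 9949 and 64.1 (at least 132-fold), and Hpd, a dioxygenase of tyrosine breakdown, at 3220 and 107 (30.1-fold). In the urea cycle 4 of 8 measured genes were called: Otc at 5482 and 61.8 (at least 72.5-fold), Cps1 at 2205 and 66.7 (at least 29.2-fold), Asl at 1883 and 143 (13.2-fold) and Arg1 at 937 and 46.8 (at least 12.4-fold). Ass1, another enzyme of the cycle, had no probe with a symbol, so its step was not measured. Of 17 genes of gluconeogenesis, glycogen and fructose 9 were higher in liver. After Pck1, which commits carbon to glucose synthesis, G6pc read 1859 and 58.2 (at least 24.6-fold) and the liver glycogen synthase Gys2 1768 and 41.5 (at least 23.4-fold). Of 25 genes of fatty acid oxidation and ketogenesis 15 were higher in liver, with Fabp1 at 22589 and 111 (204-fold) and Cpt1a, which admits fatty acids into mitochondria, at 2947 and 192 (15.4-fold). In contrast, of 27 genes of fatty acid and cholesterol synthesis only 2 were higher in liver, Elovl2 (7.3-fold) and Lpin1 (at least 5.37-fold), and Scd2 was higher in brain.

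Of 18 genes of bile acid synthesis and transport 14 were higher in liver. Akr1c6 read 11516 and 52.4 (at least 152-fold), the uptake carrier Slco1b2 3534 and 47.9 (at least 46.8-fold), the oxysterol hydroxylase Cyp7b1 2987 and 116 (25.7-fold) and Cyp8b1, which is needed to make cholic acid, 839 and 61.8 (at least 11.1-fold). Of 22 cytochrome P450 enzymes of foreign compounds 10 were called, all in liver, led by Cyp2c29 at 13867 and 55.1 (at least 183-fold), Cyp2e1 at 16948 and 103 (165-fold) and Cyp2c70 at 9495 and 56.7 (at least 126-fold). Of 34 conjugating and other enzymes 24 were higher in liver, with the carboxylesterase Ces1c at 15754 and 51.5 (at least 208-fold), the glucuronosyltransferase Ugt2b5 at 10011 and 45 (at least 132-fold) and Gsta3 at 8633 and 56.1 (at least 114-fold). The Ugt2b, Cyp2c and Cyp2d genes are close copies, and a probe may read several of them. All 8 measured genes known as male-biased in mouse liver were higher in liver, such as Cyp2d9 at 8425 and 50.5 (at least 111-fold), the urinary protein gene Mup3 at 38831 and 923 (42.1-fold) and Hsd3b5 (8.42-fold). No female sample is in the series, so a difference between the sexes was not measured.

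Of 20 transcription factors of liver 6 were called, Hnf4a, the nuclear receptor that helps set hepatocyte identity, at 3638 and 53.5 (at least 48.1-fold), Creb3l3 (13.7-fold), the bile acid receptor Nr1h4 (at least 11-fold), Foxa3 (at least 10.2-fold), Nr0b2 (at least 5.74-fold) and Cebpb (5.12-fold). The other 14 were too dim in both organs to be called.

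**Figure D2:**
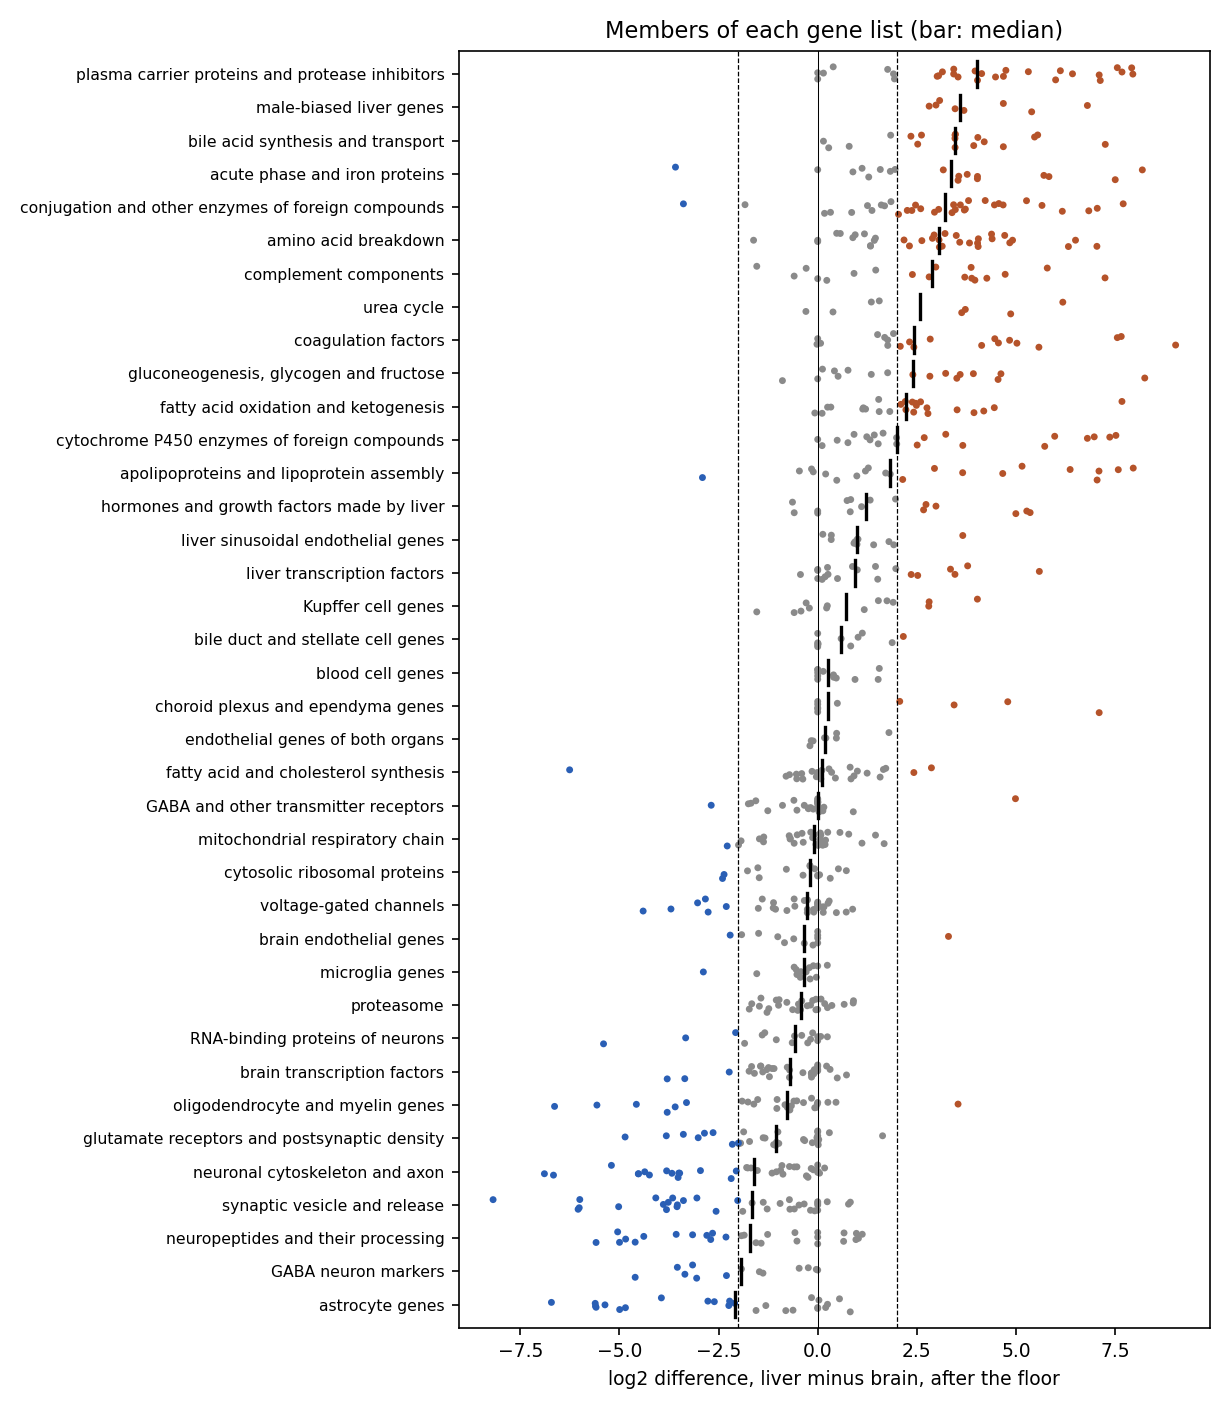
The log2 difference, liver minus brain, of each measured member of 38 gene lists, ordered by list median (black bar), with dashed lines at 4-fold. Red points are higher in liver and blue points in brain: lists of plasma proteins and liver enzymes have medians up to 4.03, the astrocyte list has the lowest median at -2.09, and the proteasome and respiratory chain lie near 0.

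Genes of synapses, axons and glia were among those with the largest differences toward brain, as were Smdt1, a mitochondrial gene described below, Slc25a4, the mitochondrial ADP/ATP carrier, at 173 and 14414 (83.2-fold), Zfp365 (at least 83.1-fold) and Scd2. Snap25, a membrane fusion protein of the presynapse, read 73.3 in liver and 22007 in brain, at least 291-fold higher. Gpm6b read 92.4 and 14214 (154-fold), Ndrg4, a cytoplasmic protein of neurons, 46.8 and 11245 (at least 149-fold), and Tuba1a, an alpha tubulin, 80.5 and 9562 (119-fold). Of 35 genes of synaptic vesicles and release 16 were higher in brain and 0 in liver, with a median log2 difference of -1.65. After Snap25 the largest were Vamp2, its partner on the vesicle, at 243 and 15980 (65.9-fold), Rab3a at 95.9 and 6198 (64.6-fold), Cplx1, a clamp of release, at 55.1 and 4835 (at least 64-fold) and Synpr at 48.6 and 2451 (at least 32.4-fold).

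Of 36 genes of the neuronal cytoskeleton and axon 15 were higher in brain, among them Kif5c at 89.7 and 9091 (101-fold), Gap43, a growth cone protein, at 46.1 and 2782 (at least 36.8-fold), and Thy1 at 52.4 and 1738 (at least 23-fold). Of 28 neuropeptides and their processing proteins 12 were higher in brain. These include processing proteins, such as Cpe, carboxypeptidase E, at 60.2 and 3638 (at least 48.1-fold), as well as the peptides Penk at 56.1 and 2169 (at least 28.7-fold) and Sst, somatostatin, at 127 and 3094 (24.3-fold). Of 13 markers of GABA neurons 6 were higher in brain, with Slc32a1, which loads GABA into vesicles, at 85.1 and 990 (11.6-fold) and Pvalb at 151 and 1252 (8.3-fold).

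Of 35 glutamate receptors and postsynaptic proteins 8 were higher in brain, led by Camk2a, the kinase of the postsynaptic density, at 56.1 and 2190 (at least 29-fold), while the receptor subunit Gria1 read 66.6 and 420 (at least 4.45-fold). Of 34 voltage-gated channels 6 were higher in brain, among them the auxiliary subunits Kcnab2 at 53.5 and 1598 (at least 21.1-fold), Kcnip4 (at least 8.16-fold), Kcnab1 (7.12-fold) and Scn2b (at least 6.79-fold), and 27 were too dim to be called. Of 29 receptors for GABA and other transmitters 1 was higher in brain, Gabrb2 at 59.3 and 494 (at least 6.43-fold), 1 was higher in liver, and 26 were too dim to be called. Of 33 brain transcription factors 3 were called, Olig1 at 112 and 1557 (13.9-fold), Tbr1 at 123 and 1255 (10.2-fold) and Neurod6 at 56.1 and 355 (at least 4.69-fold), and 28 were too dim. Of 17 RNA-binding proteins of neurons 3 were called, led by Celf4 at 63 and 3193 (at least 42.2-fold).

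Of 25 astrocyte genes 13 were higher in brain, with the lowest median of any of the 38 lists (-2.09). Sparcl1 read 48.6 and 7939 (at least 105-fold), the glutamate transporter Slc1a3 70.8 and 3692 (at least 48.8-fold), S100b 59.3 and 3673 (at least 48.6-fold) and Gja1, connexin 43, 105 and 4343 (41.2-fold). Of 27 oligodendrocyte and myelin genes 6 were higher in brain, with Mbp, myelin basic protein, at 44 and 7513 (at least 99.4-fold) and Cldn11, the tight junction protein of myelin, at 46.1 and 3584 (at least 47.4-fold). Trf, transferrin, which is on that list because oligodendrocytes make it, was 11.6-fold higher in liver at 2791 and 240. Of 14 microglia genes 1 was higher in brain, the purine receptor P2ry12 at 57.2 and 558 (at least 7.38-fold), a call lost in the irradiated pair, and 11 were too dim to be called.

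Over the 18 liver lists together, 177 of 327 measured genes were higher in liver (54.1%, beside 3.7% of all genes) and 3 were higher in brain. Over the 14 brain lists, 86 of 341 were higher in brain (25.2%, beside 3.8%) and 7 in liver. The lists were chosen with earlier results of these data known, so the distance of these shares from those of all genes is no test. Members too dim to be called count in both list shares, so the 2 list shares do not compare the organs. Such members were 28 of 33 brain and 14 of 20 liver transcription factors. They were 27 of 34 voltage-gated channels and 7 of 29 plasma carriers and protease inhibitors. The 3 exceptions in the liver lists were Apod, Fth1 and Gstm5, a glutathione transferase at 85.1 and 890 (10.5-fold higher in brain). The 7 in the brain lists were Trf, the GABA receptor subunit gene Gabrg3, the efflux pump Abcg2 at 2008 and 204 (9.84-fold) and 4 genes of the choroid plexus list. Those 4 were Ttr, transthyretin, at 23588 and 172 (137-fold), Rarres2, chemerin, at 6537 and 236 (27.7-fold), the water channel Aqp1 at 1037 and 95.5 (10.8-fold) and the anion exchanger Slc4a2 at 1521 and 363 (4.19-fold), whose call was lost without scaling, in the irradiated pair and with the treatments averaged. Of the 10 measured choroid plexus and ependyma genes 0 were higher in brain, and the 6 others were too dim in both organs to be called. Lists share some genes, and the 6 lists tied to neither organ gave 2 and 4 calls among 122 measured genes.

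Most genes of the vessel and immune cells had probes too dim for a call. Of 14 Kupffer cell genes 7 were bright enough, and 3 were higher in liver, the iron exporter Slc40a1 at 1742 and 107 (16.3-fold), C6 (at least 7.01-fold) and the lectin Clec4f at 631 and 90.6 (6.97-fold), and 5 were with either median or 75th percentile scaling. Of 12 sinusoidal endothelial genes 1 was bright enough and was called, Clec4g at 1739 and 138 (12.6-fold), and of 11 bile duct and stellate cell genes 2 were bright enough and 1 was called, Ecm1 at 985 and 221 (4.47-fold). Of 13 brain endothelial genes 3 were bright enough and 1 was higher in brain, the thyroid hormone carrier Slco1c1 at 57.2 and 349 (at least 4.62-fold). Neither the 8 endothelial genes of both organs nor the 12 blood cell genes could give a call, since all were too dim.

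Lists of genes that cells use in general gave few calls. Among all genes calls were few as well, with 3.7% higher in liver and 3.8% in brain, so these short lists do not stand apart by their counts. None of 28 measured proteasome genes was called, although 4 were higher in brain without scaling. Of 31 genes of the mitochondrial respiratory chain 1 was called, Cox8a at 2172 and 10561 (4.86-fold higher in brain), and that call was lost with each of the other 3 scalings (median, 75th percentile and none). Other genes of the list passed under some settings, with 2 higher in brain without scaling or by the brightest probe and 1 higher in liver with median or 75th percentile scaling. Of 16 ribosomal proteins 2 were higher in brain, Rps27 at 2884 and 15223 (5.28-fold) and Rps3 at 1078 and 5541 (5.14-fold), and neither was with median or 75th percentile scaling or in the irradiated pair. Only 6 of these 16 were bright enough for a call, against 27 genes in each of the proteasome and respiratory chain lists. Of the 56 listed ribosomal proteins 40 had no probe with a symbol, so few calls were possible there.

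In some families, related genes split between the organs. Of 32 families with 96 measured genes, 18 genes were higher in liver and 21 in brain, beside 3.7% and 3.8% of all genes. A call was held by 22 families, and in 7 families members were called in opposite directions. Members were chosen with earlier results of these data known, so these counts do not measure how often families split. Among the fatty acid binding proteins, Fabp1, Fabp2 at 2382 and 54.4 (at least 31.5-fold) and Fabp4 at 406 and 42.9 (at least 5.37-fold) were higher in liver, whereas Fabp7, of astrocytes and neural progenitors, at 254 and 3900 (15.4-fold) and Fabp3 at 105 and 1291 (12.2-fold) were higher in brain. The liver glycogen phosphorylase Pygl read 399 and 69.4 (at least 5.28-fold higher in liver), and the brain form Pygb 54.4 and 373 (at least 4.94-fold higher in brain), while the muscle form Pygm read 213 and 193. The low-affinity glucose transporter Slc2a2 was higher in liver at 912 and 42.9 (at least 12.1-fold), and the neuronal form Slc2a3 in brain at 57.2 and 392 (at least 5.19-fold).

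Among acyl-CoA synthetases Acsl1 was higher in liver (6.04-fold), and Acsl3 at 165 and 2442 (14.8-fold) and Acsl6 (at least 4.65-fold) in brain. Among connexins Gjb2 was higher in liver (at least 4.59-fold), and Gja1 and Gjb6 at 72.1 and 2408 (at least 31.9-fold) in brain. Among carbonic anhydrases Car3 at 1137 and 61.8 (at least 15-fold) was higher in liver, and Car2 at 136 and 3228 (23.8-fold) and Car11 (at least 23.9-fold) in brain. Among the mu glutathione transferases, which are close copies, Gstm3 (at least 6.91-fold) was higher in liver and Gstm5 in brain. Without scaling between the organs 4 of these 7 families still had calls in both directions, and those of glycogen phosphorylase, acyl-CoA synthetase and connexin lost their liver calls. With the floor at the 75th percentile only the fatty acid binding proteins and carbonic anhydrases (2 families) kept calls in both directions, and in the irradiated pair 5 did, without glycogen phosphorylase and glucose transporter.

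Other families had calls in 1 direction. Scd2, a stearoyl-CoA desaturase, read 131 and 10011 (76.4-fold higher in brain), whereas Scd1 read 2483 and 1240. The cytosolic creatine kinase Ckb read 56.1 and 3987 (at least 52.8-fold), the neuronal enolase Eno2 60.2 and 3360 (at least 44.5-fold), and the sodium pump subunit Atp1b1 349 and 8634 (24.7-fold). Mt3, a metallothionein on the astrocyte list, was 6.09-fold higher in brain at 122 and 743, beside Mt1 at 20171 and 20520 and Mt2 at 11822 and 10087. Pkm was 4.73-fold higher in brain, a call lost with median or 75th percentile scaling, and the liver form Pklr read 278 in both. Mat1a, the liver methionine adenosyltransferase, was higher in liver at 6046 and 72.1 (at least 80-fold).

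**Figure D3:**
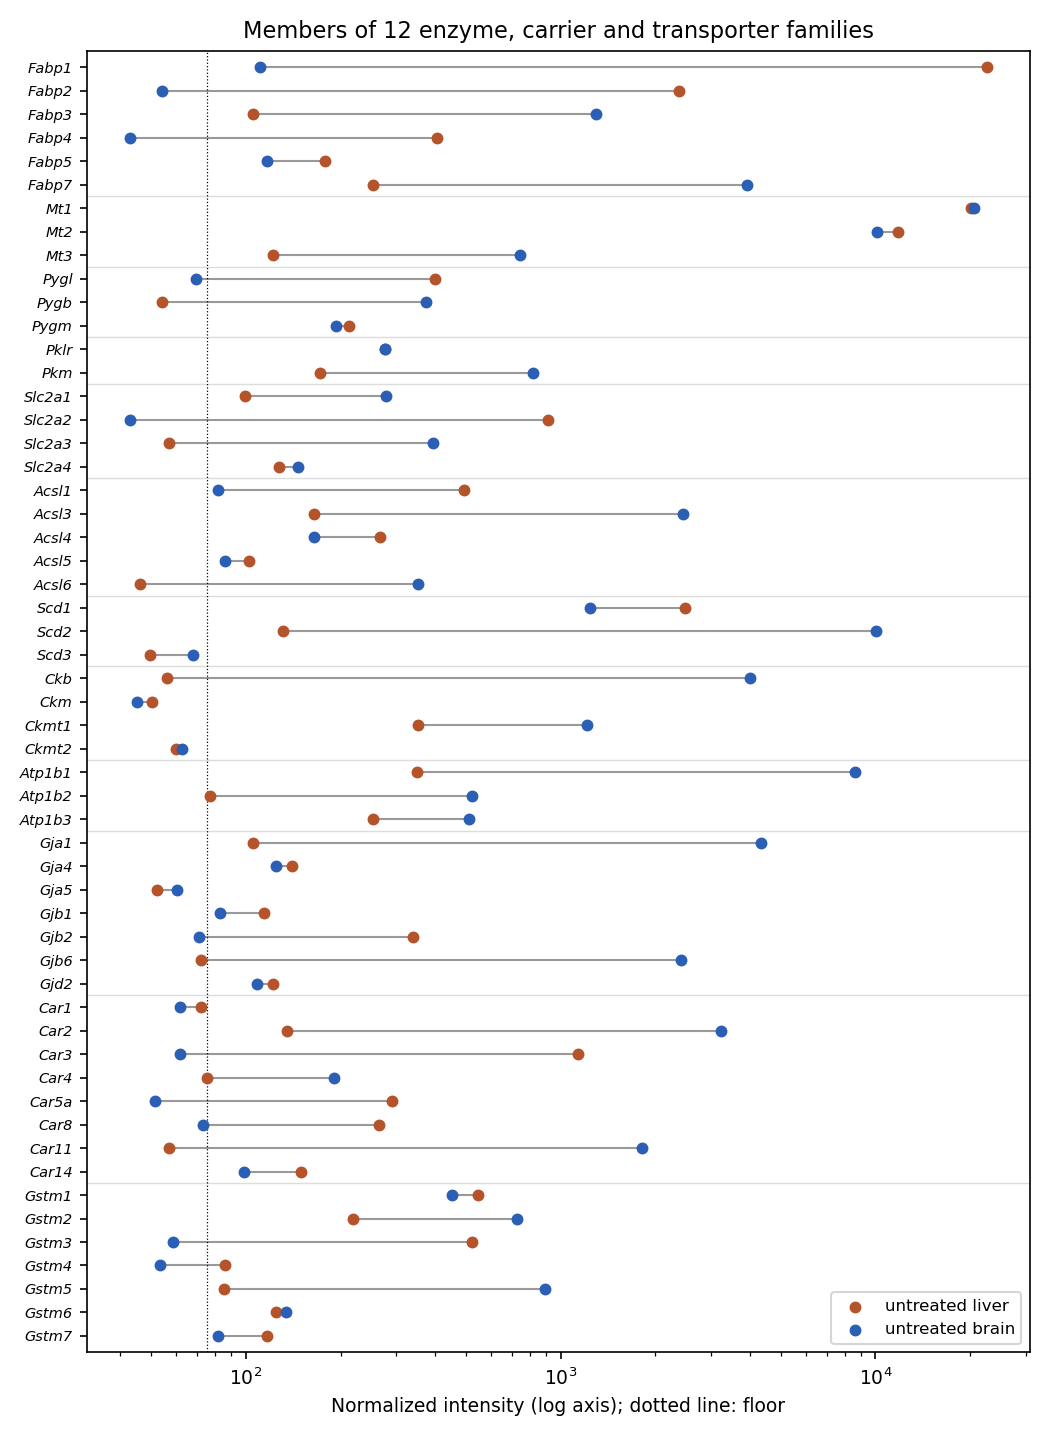
Normalized intensity (log axis) in untreated liver (red) and untreated brain (blue) for the measured members of 12 families, separated by grey lines, with the floor of 75.6 dotted. The 12 shown include all 7 families, of 32, with members called in opposite directions. Fabp1 at 22589 and 111 and Fabp7 at 254 and 3900 have opposite orders, while Mt1 and Mt2 lie close together.

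Genes called in liver lay beside each other on the chromosomes in 7 runs of 3 or more adjacent measured genes, with 25 genes in all. The longest was a run of 6 on chromosome 5 of Ugt2b and Ugt2a genes, in which Ugt2b37 read 4196 and 47.9 (at least 55.5-fold), Ugt2a3 1861 and 49.6 (at least 24.6-fold) and Ugt2b34 915 and 46.8 (at least 12.1-fold). The others were a run of 4 Cyp2d genes on chromosome 15 and runs of 3 that hold Itih, Serpina, Akr1c and Gstt genes, and F11, Klkb1 and Cyp4v3. In brain there was 1 run, of 5 genes on chromosome X: Arxes1, Bex2, Bex4, Tceal8 and Bex1, with Bex2 at 75.6 and 3273 (at least 43.3-fold) and Bex1 at 50.4 and 1889 (at least 25-fold). Some genes of such runs are close copies of each other, so their probes may share signal.

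Some genes with large differences toward liver are on none of the lists above. Mc1r, the melanocortin receptor of pigment cells, read 12688 in liver and 79.1 in brain (160-fold), Syt10, a synaptotagmin, 6282 and 42.9 (at least 83.1-fold), and Zfp385c 5988 and 86.6 (69.2-fold). Other synaptotagmins, Syt1, Syt4 and Syt11 of the synaptic vesicle list, were higher in brain. Mc1r, Syt10 and Zfp385c each have 1 probe, and what these probes read was not tested. Some called genes had further probes. Each called probe of such a gene was paired with each other probe of that gene, so a probe can enter several pairs. The liver side gave 288 pairs, and in 203 the other probe was too dim in both organs to be called. In 62 of the remaining 85 pairs the other probe was called the same way (72.9%). On the brain side this held for 84 of 124 pairs with a bright enough other probe (67.7%). In 4 pairs on each side the other probe was called the opposite way.

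The same comparison was made in the irradiated mice, which are other samples. There, 560 genes were higher in liver (3.63%) and 592 in brain (3.84%). Of the 570 genes higher in untreated liver 474 were also higher in irradiated liver (83.2%), and of the 585 in brain 476 (81.4%), and 0 were called the opposite way. Fgb read 49935 and 68.3 in the irradiated pair, Alb 44958 and 82.7, Snap25 92.4 and 15223, and Mbp 46.1 and 3360. Of the 180 called genes that the naming rules gave, 12 fell under 4-fold in the irradiated pair, and the others kept their call. The largest loss was of Smdt1, which encodes a small subunit of the calcium uniporter of mitochondria, at 237 and 26103 in the untreated pair and 308 and 1000 in the irradiated pair. Gabrg3 read 7886 and 249 in untreated mice (31.7-fold) and 231 and 197 in irradiated mice, and Naa35 1176 and 97 against 66.7 and 68.3.

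Conversely, 86 genes were called in liver and 116 in brain in the irradiated pair alone. Krtap13, a hair keratin-associated protein gene, read 77 and 49.6 in untreated and 114 and 36172 in irradiated mice, and Celf3 903 and 987 against 44.4 and 1604. Lcn2, the iron-binding protein lipocalin 2, read 164 and 52.4 against 4758 and 158, and Cxcl1, a neutrophil chemokine, 240 and 50.5 against 1676 and 59.3. With 1 sample per organ and treatment, a change with irradiation and a difference between samples cannot be told apart.

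**Figure D4:**
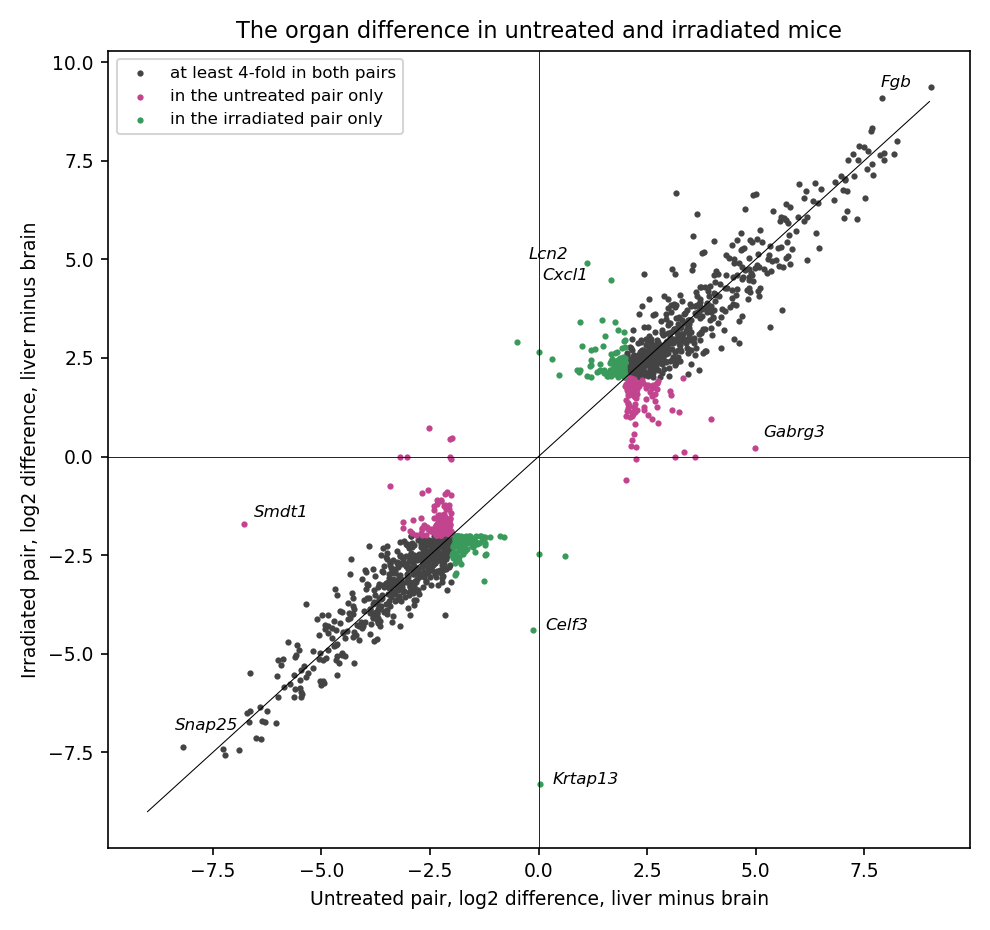
The log2 difference, liver minus brain, of each gene called in either pair, in untreated mice (horizontal) and irradiated mice (vertical), with the line of equality. The genes called in both pairs (474 in liver and 476 in brain) lie along the line from Snap25 to Fgb, and Smdt1, Gabrg3, Celf3 and Krtap13 lie far from it.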

How the data were processed

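RNA of brain, liver and intestine, untreated or 3 h after 8.5 Gy, was measured in 1 sample per organ and treatment. The authors hybridized Cy5-labelled RNA to the Mouse Whole Genome OneArray, and deposited intensity values that were background-corrected, limited to non-control probes at a signal-to-noise ratio of at least 1, and normalized in R. The normalization method and the genome build are not given in the sources used here, and limma is named without a version. The methods name replicates from independent mice. Sorted values of both treatments of an organ differ by at most 0.05 on the log2 scale in liver and 0.03 in brain, while the organs differ in median, so the organs were normalized separately.

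Of 29922 probes, 26385 had a value in both untreated samples, 2010 in liver alone and 632 in brain alone. Symbols came from the platform annotation and were updated with RefSeq names (17558 kept, 3410 updated, 52 not found). Of the shared probes 19137 have a symbol, for 15415 genes, of which 3083 have more than 1 probe. Both columns were set to the mean of their sorted log2 values, the irradiated and intestine columns were set to the same values, the floor was the median over both, and a gene is the mean of floored log2 values over its probes. The number of arrays limits the precision.

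The genes named were drawn from the 20 with the largest difference each way (with the probes of a gene agreeing in sign) and up to 5 called members of each of 38 lists each way. They were also drawn from members called against their list's organ, members of families with a call, and list genes with a value in 1 organ only. Not every gene these rules gave is named above, and Wfdc21 in liver and Cst3 in brain are among those left out. The values of Mt1, Gapdh, Gad1, Aqp4, Gfap, Syt10 and Zfp385c, the genes of the promoter and irradiation paragraphs and those in chromosome runs were added by their own rules or after their values were seen. The members and lists were chosen with earlier results of these data known. The rule was tested on simulated data with planted differences. The alternatives were other scalings, floors, thresholds, probe rules, ranks and the irradiated samples. Python 3.11.15 with numpy 2.4.6, pandas 2.3.3 and matplotlib 3.10.9 was used.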

Additional observations from a re-analysis of the deposited data

Results flagged for a closer look

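Probes with a value in only 1 of the organs could not enter the comparison, since spots with a low signal-to-noise ratio had been removed, and those of listed genes at or above the 90th percentile of their organ are given here as deposited intensities with no fold. In liver, with none in brain, these were 37761 for a second probe of Pck1, 20843.5 for Kng1, which encodes kininogen, 12763 for complement factor B (Cfb), 6601.5 for Cyp3a25, 4486.5 for the serum amyloid gene Saa4, 3558.5 for Ces1f, 3478 for Hgd of tyrosine breakdown, 2751 for complement factor I (Cfi), 1678.5 for Acox2 of bile acid synthesis and 1408 for a Cyp2d26 probe. Further down were Lect2 at 1176, Hal, which breaks down histidine, at 1133.5, Kmo at 1082, the hepatic lipase gene Lipc at 808 and Ppp1r3b at 341.5. In brain, with none in liver, they were 5533 for a second probe of Snap25, 3668.5 for Mlc1, an astrocyte membrane protein, and 770.5 for Nefl, the light neurofilament. Of these 18 genes, 11 are left out of the list counts, 3 (Pck1, Kng1 and Snap25) are in them as called through another probe, and 4 (Cyp3a25, Cyp2d26, Kmo and Ppp1r3b) are in them as measured by another probe and not called. Of all probes with a value in liver alone 88.2% lay under the liver median and 40 at or above its 90th percentile, and of those with a value in brain alone 48.1% and 33.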

How the results depend on the processing

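No paired analysis was possible because each organ and treatment has 1 sample. With scaling to the median, to the 75th percentile, no floor, floors at the 25th or 75th percentile, the brightest probe, the irradiated pair or averaged treatments, the counts stayed within 1.5 times of 570 and 585, between 415 and 682 in liver and between 404 and 706 in brain. Without scaling, liver gave 412 and brain 967, so that 29.9% of calls were in liver, against 49.4%. At 2-fold the counts were 1470 and 1669, at 8-fold 299 and 252, with probes in place of genes 910 and 922, and by ranks 257 and 245. Under the alternatives listed first and without scaling, none of the 180 called genes that the naming rules gave changed sign. The most calls were lost with the floor at the 75th percentile (21), in the irradiated pair (12) and without scaling (10), and none with no floor or with the floor at the 25th percentile. The small counts moved most: microglia genes fell to 0 in the irradiated pair, Kupffer cell genes rose to 5 without a floor, and brain transcription factors rose to 7 by the brightest probe. The cause was not tested. Differences of dim probes are limited by the floor.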
